A study of Mus musculus with 4 samples.

Results

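Meox1 and Meox2 encode the mesenchyme homeobox transcription factors. Their signals were measured on 4 one-colour arrays of sorted cells from mouse embryonic kidney at E15.5, when nephrons are forming at the edge of the organ. Members were the non-control probes that the array design names Meox1 or Meox2, of which there were 2 among 39395 probes analysed, 1 for each of 2 genes out of 31875 gene or transcript names. All samples came from kidneys labelled Six2GFP, of a hybrid strain of 129 and C57BL/6. Fluorescence-activated sorting parted Six2GFP-positive from Six2GFP-negative cells, and each population was hybridised to 2 arrays. The cell type label reads nephron progenitor for both populations, so the groups were taken from the sample titles, which give the reporter's state. How the reporter was built, how many kidneys were pooled and whether the samples of a group came from separate litters are not given in the sources used here, so p-values measure the spread between these samples, which may be technical. The sample descriptions speak of tamoxifen, while the protocols name none, and no such treatment is assumed.

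Meox1 and Meox2 are close relatives of the Hox genes that lie outside the Hox clusters. In the embryo they are best known from the somites, where they act together in the sclerotome and in muscle precursors, and Meox2, first described as a growth arrest gene, also acts in vascular cells. In the developing kidney, Meox1 is used as a marker of the cap mesenchyme, the layer of Six2-expressing progenitors around the tips of the ureteric bud.

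The probes are shown because each gene rests on a single spot per array. The first 30 of the 60 bases of each probe, 5′ to 3′, are given here in lower case.
Meox1 probe: ctaagattacatcaagctaattgtgcaagg
Meox2 probe: agacattaggatcataggcaaatcagttac
The Meox1 probe lies on the minus strand of mm9 at chr11:101738847-101738906. The Meox2 probe lies on the plus strand at chr12:37905809-37905868. The longest run of bases shared by both whole probes was 6, so the paralogues were read by different sequences.

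The RefSeq promoter table (GRCm38.p6) held a promoter for Meox2, whose 250 bases before the gene start are printed because the gene differed between the populations. They lie on the plus strand at chr12:37108290-37108539, and the capitals mark a 10-base match to the motif of the MEF2 factors, regulators of muscle genes.
Meox2 promoter: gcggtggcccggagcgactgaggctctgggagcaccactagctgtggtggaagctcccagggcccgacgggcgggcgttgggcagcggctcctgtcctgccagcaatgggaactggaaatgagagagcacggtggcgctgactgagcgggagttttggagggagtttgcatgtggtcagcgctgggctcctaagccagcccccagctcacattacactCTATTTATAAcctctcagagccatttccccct
The letters CTATTTATAA, chosen after the promoter had been read, span positions -32 to -23 from the gene start and occur on either strand in 26 of 32851 promoter windows of this length (0.0791%). The MEF2 motif in its general form was found in 2.92% of windows. The letters TATAAA, the core promoter element found upstream of many start sites, lie within the same 10 bases on the other strand (12.4% of windows). TCAGGTTTC, a sequence bound by Six2 and its relatives, and TAATTA, a core bound by many homeodomains, are not in this window; the shares of windows that hold them were 0.387% and 4.84%. These matches are descriptions of letters only.

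Across the series, between 72.5% and 79.1% of spots per array passed the scanner's test for signal well above background, and none was saturated; with arrays, their number limits the precision. The labels were checked on Six2 itself, the transcription factor that keeps progenitors undifferentiated, which was 56.5-fold higher in Six2GFP-positive cells. Of 18 markers of the cap mesenchyme, 17 were higher and none lower, while 9 of 10 endothelial, 10 of 11 stromal and 9 of 10 ureteric bud markers were lower. So were 10 of 12 early nephron and tubule and 5 of 6 podocyte markers. Of 8 blood markers 5 were lower, and Csf1r, C1qa and Cd68 were not called. Of 8 smooth muscle and mural markers 6 were lower and 1, Des, was higher (log2 difference 2.99). Over all genes tested, 20.8% were higher and 18.4% lower. These marker lists were chosen with earlier results of these data known. In bulk samples, fewer cells of a type and less RNA per cell cannot be told apart.

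Both Meox genes were far higher in Six2GFP-positive cells, Meox1 by 18.9-fold and Meox2 by 14.8-fold. Neither gene fell to background in the negative cells. All 8 spots were well above background, none was an outlier, and the processed signal carried a scanner error of about 10% of its value.

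The Meox1 spot gave a processed intensity of 6401 and 6395 on positive arrays 1 and 2, and of 354 and 411 on negative arrays 1 and 2. The positive arrays were almost equal and the groups lay far apart. The raw mean signal was 159 and 150 times the local background in positive cells, against 9.17 and 11.4 times in negative cells.

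For Meox2 the processed intensity was 9807 and 10271 in positive cells against 735 and 788 in negative cells. Its mean signal exceeded the local background 252 and 238 times in positive cells and 20.4 and 23.9 times in negative cells. Again both positive arrays lay above both negative arrays, with no overlap.

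**Figure D1:**
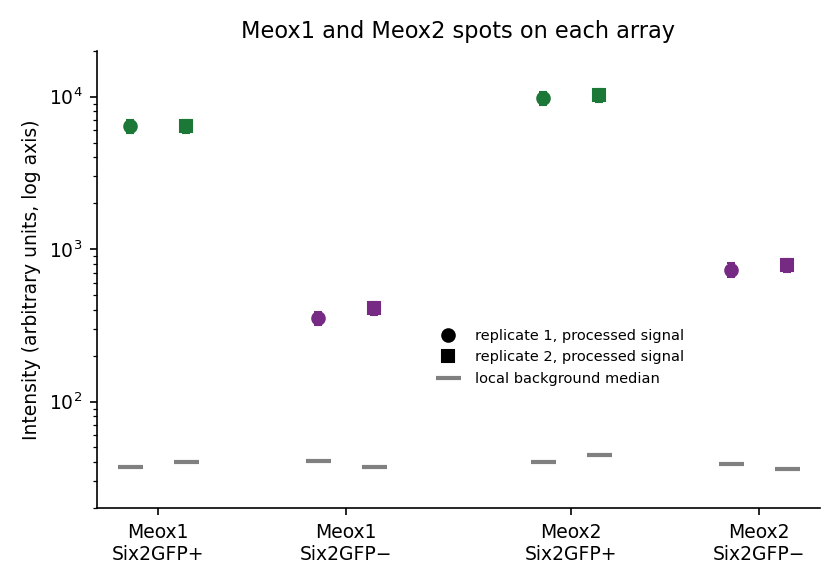
Processed intensity of the Meox1 and Meox2 spot on each array (log axis, arbitrary units), with the scanner's error as bars and the local background median as grey dashes. Circles and squares are replicates 1 and 2; positive cells (green) lie at 6395 or more for both genes and negative cells (purple) at 788 or less, and every spot lies well above its background. Heights of the 2 genes are not comparable, since each probe has its own response.

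For the comparison, each array was scaled to its 75th percentile of log2 signal. On this scale Meox1 was at 2.16 and 2.18 on the positive arrays and at -2.18 and -1.95 on the negative arrays. The arrays of a group differed by 0.02 in positive and 0.23 in negative cells, against a difference between groups of 4.24 ± 0.12 (SE, n = 2 arrays per group; 95% interval 3.92 to 4.56; limma adjusted p = 4.8e-04).

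Meox2 was at 2.78 and 2.87 on the positive arrays and at -1.13 and -1.01 on the negative arrays. Replicates differed by 0.09 and 0.12. The difference between groups was 3.89 ± 0.10 (95% interval 3.62 to 4.16; limma adjusted p = 4.8e-04). For both genes the separation was thus many times the gap between replicates.

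Read the other way round, the negative cells held 5.30% of the Meox1 signal of the positive cells and 6.74% of the Meox2 signal. The same share was 1.77% for the brighter Six2 probe, 1.65% for the other Six2 probe and 3.58% for Cited1, a co-regulator found in the least differentiated cap mesenchyme. All of these probes were well above background on both negative arrays. Which cells of the negative fraction held the Meox transcripts was not tested.

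Large upward differences were rare on these arrays. At an adjusted p of 0.05 in limma, 39.3% of 30012 probes tested differed, 21.1% higher and 18.2% lower in positive cells, and 75.1% had groups that did not overlap, so neither property alone sets the Meox genes apart. In size, 49 probes had a larger difference than Meox1 and 66 a larger one than Meox2, which are 0.163% and 0.220% of the probes tested. The median over all probes was 0.15 above 0. Centring on the array median moved it to 0.41 and gave 13562 probes higher against 4654 lower, in place of 6343 and 5463; on that scale Meox1 and Meox2 stood at 4.49 and 4.14. With 1 array left out, the number of probes called higher fell to between 1826 and 2682, while both Meox genes stayed past the threshold each time.

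**Figure D2:**
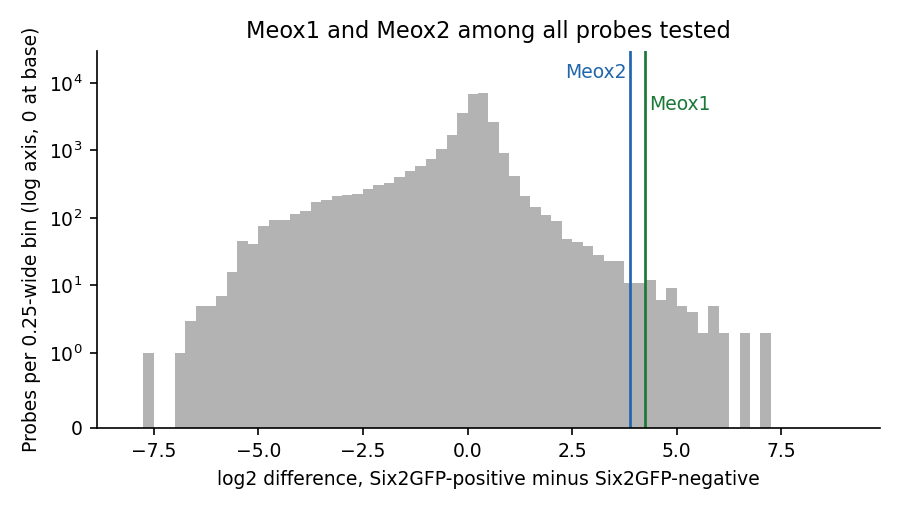
Number of probes by log2 difference, Six2GFP-positive minus Six2GFP-negative, in bins of 0.25 (log axis with 0 at its base) over 30012 probes, with the differences of Meox1 (4.24) and Meox2 (3.89) as lines. Both genes sit in the thin upper tail.

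The sizes of the Meox1 and Meox2 differences were compared within arrays, since their 95% intervals overlapped. The log2 ratio within an array, Meox1 over Meox2, does not depend on scaling between arrays; only its change between groups is read here. Positive arrays 1 and 2 gave -0.62 and -0.68, and the negative arrays -1.06 and -0.94, so it did not overlap between groups and was 0.35 higher in positive cells, a 1.27-fold gap between the differences of the paralogues. With 2 arrays per group, the exact permutation test, two-sided, gave p = 0.333. That is the smallest that 6 regroupings allow, so the test could neither show nor exclude a gap between the genes. After normexp background correction the gap shrank to 0.23.

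Set among the markers of cap mesenchyme, the Meox genes stood in the upper part, with 5 of 18 markers above Meox1 and 6 above Meox2; the median of the list was 1.97. Fgf20, a growth factor of the cap (7.03 ± 0.28), Six2 (5.82 ± 0.10), Osr1, a regulator of early kidney mesenchyme (5.12 ± 0.12), Crym, which encodes a thyroid hormone binding protein (5.07 ± 0.15), and Cited1 (4.80 ± 0.17) had larger differences. Meox1 came next, then Spock2, a matrix proteoglycan gene (4.22 ± 0.10), then Meox2 and the chromatin gene Phf19 (3.67 ± 0.10). The 10 markers from Rspo1 (2.83) to Tmem100 (0.70) were higher by less, and Eya1, a partner of Six2 and its relatives, did not pass (0.04 ± 0.09, adjusted p = 0.736). The summed level of the marker list was 8.07 to 8.09 in positive and 6.02 to 6.07 in negative cells. This and later sums add linear intensities of probes with unlike responses, so a few bright probes count most. In the negative cells these were Eya1 and Wt1.

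Neighbours in this order were compared by their ratio within each array. Meox1 over Spock2 was -0.38 and -0.38 in positive and -0.42 and -0.37 in negative cells, so the groups overlapped and the change between groups was 0.02. Meox1 over Cited1 was lower in positive cells by a log2 difference of -0.57, and Meox2 over Phf19 was higher by 0.22, both without overlap. Against Six2 the gap was wide: Meox1 over Six2 differed by -1.58 and Meox2 over Six2 by -1.93. The exact permutation p, two-sided, was 0.333 for each ratio without overlap and 1 for Meox1 over Spock2, and with 4 arrays none can fall lower than 0.333.

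**Figure D3:**
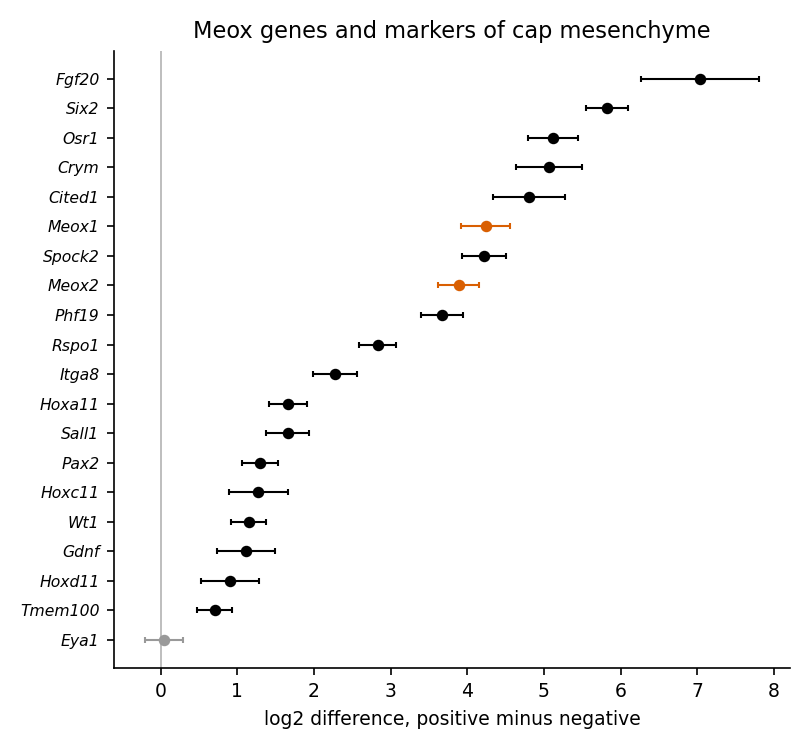
Log2 difference, Six2GFP-positive minus Six2GFP-negative, with 95% limma intervals for the 18 markers of cap mesenchyme (black, grey if not past the threshold) and for Meox1 and Meox2 (orange), n = 2 arrays per group. Both Meox genes lie between Cited1 (4.80) and Phf19 (3.67), and the intervals of Meox1, Spock2 and Meox2 overlap. The Cited1 interval also overlaps that of Meox1, and the Phf19 interval overlaps those of both Meox genes.

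Genes most like the Meox genes were sought by the root mean square difference between mean-centred log2 values over the 4 arrays, among 24150 genes each represented by its brightest probe. Nearest to Meox1 were Spock2 (0.02), the protocadherin gene Pcdh8 (0.06), which is known from somite formation, the neurofilament gene Nefl (0.08) and Lamp5 (0.11), with log2 differences between 4.03 and 4.35. With normexp those of Nefl and Lamp5 were 2.60 and 2.11. The muscle myosin light chain gene Myl1 also fell among the 5 by the values. Neither of its negative spots was well above background, so its place rests on an unmeasured level. Myl1 was at least 4.67-fold higher on the processed signal, and its fitted difference with normexp was 0.83. Nearest to Meox2 were Hoxd12, a 5′ Hox gene (0.04), Rasef (0.07), the sulphotransferase gene Chst5 (0.07), the exchange factor gene Dock5 (0.10) and Lamp5 (0.10), with differences between 3.75 and 4.03; that of Chst5 was 2.77 with normexp. Meox2 itself ranked 13th for Meox1, at 0.18. With 4 arrays in 2 groups, this measure mostly reads the size of the difference.

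The close relatives of Meox outside the Hox clusters were mostly dim. Of 11 such homeobox genes (Evx, Gbx, Gsx, Mnx, Cdx and Pdx families), 5 passed the filter on dim probes. None of those passed the threshold in either direction. By their brightest probes, Gsx1, Gsx2, Gbx1, Cdx1 and Evx2 had log2 differences from -0.37 to 0.20, with a median of -0.24. That median is the value of the brighter Gbx1 probe, while the other Gbx1 probe gave -1.28 and did not pass. The brighter Gbx1 probe and Evx2 were not well above background on either positive array. Among all genes, 20.8% were higher and 18.4% lower. The sign of that median turned with quantile normalization, with the array median and with both normexp settings. At an unadjusted p of 0.05, 1 of these 5 passed in limma, Cdx1, named after its value was seen.

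Genes of the somite, the tissue in which Meox function is best known, were called in both directions at shares near those of all genes. Of 23 listed, 19 were tested, 5 were higher and 5 lower, where 20.8% of all genes were higher and 18.4% lower, with a median log2 difference of 0.19; with quantile normalization or the array median 8 were higher. Tcf15, which encodes paraxis and can pair with Meox proteins, was at -3.59 and -3.36 on the positive arrays and at -0.55 and -0.39 on the negative arrays. It was therefore lower where both Meox genes were high (-3.01 ± 0.13, limma adjusted p = 7.1e-04). Uncx, a homeobox gene of the posterior somite, went the other way: it was at 1.79 and 1.79 in positive and 0.24 and 0.27 in negative cells (1.53 ± 0.08, adjusted p = 0.0011).

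The other large upward differences in this list were Ripply2, a repressor that sets somite borders (2.34 ± 0.09), and Foxc1, a forkhead factor of paraxial and kidney mesenchyme (1.77 ± 0.10). Downward, Twist1, a factor of mesenchymal cells, differed by -4.73 ± 0.17, or by -2.76 with normexp. Tbx18, which marks stroma and the ureter wall in the kidney region, gave no spot well above background in the Six2GFP-positive fraction, where it was at least 24.8-fold lower on the processed signal, against a fitted log2 difference of -2.31 with normexp (adjusted p from 5.4e-04 to 0.0027 for these 4 genes). Stromal markers, a list that also holds Tbx18, moved with these: 10 of 11 were lower, and their summed level was 3.67 to 3.95 in positive and 6.65 to 6.80 in negative cells; their part in the result was not tested.

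Other textbook partners were faint. Pax3, which marks muscle precursors, was at -4.50 and -4.91 in positive and -4.83 and -4.95 in negative cells (0.19 ± 0.17, adjusted p = 0.43). Nkx3-2, a sclerotome gene, gave -0.13 ± 0.10 (adjusted p = 0.338), and its sign turned with quantile normalization, the array median and normexp. Pax1, Pax9, Myf5 and Mesp1 did not pass the filter on dim probes. Of 8 tested markers of differentiated skeletal muscle, 1 was higher and 2 were lower, where 20.8% of all genes were higher and 18.4% lower. These counts are too small to set against those shares.

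Genes linked to Meox factors in vascular cells were mostly lower in Six2GFP-positive cells, where Meox was high. The list holds Zeb2 (-3.00, counted as lower), which need not lie under Meox control. It does not separate genes reported as raised by Meox from those reported as lowered. Its counts and median therefore show no direction of control. Of 11 listed, 9 were tested, 6 were lower and 1 higher, where 18.4% of all genes were lower and 20.8% higher. Their median was -2.04, or -0.69 and -0.72 with the normexp settings. Fabp4, a fatty acid carrier of capillaries, was at -1.74 and -1.66 in positive and 3.64 and 3.56 in negative cells, a difference of -5.30 ± 0.09 (limma adjusted p = 4.8e-04). Vcam1, an adhesion molecule gene, differed by -3.79 ± 0.26 (limma adjusted p = 0.0018). Icam1, whose positive spots were not well above background, was lower by at least 5.07-fold on the processed signal (limma adjusted p = 0.0147). The call of Icam1 ended without negative array 1 or 2 (0.0716 and 0.0674), and with normexp its fitted difference was -0.66 in place of -3.17.

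Lpl, the lipoprotein lipase gene, alone of the list was higher (0.46 ± 0.12, adjusted p = 0.0477), and this call ended with any 1 array left out (adjusted p from 0.08 to 0.172), without the filter on dim probes and with the mean of its probes. The cell cycle inhibitor gene Cdkn1a, named here because its probes disagreed, was -0.92 by its brighter probe and 0.59 by the other, of which the first passed the threshold. The probes of Itgb3 also differed: the brighter, which sets the list median, gave -2.04 and passed, and the other gave -0.68 and did not. Endothelial markers moved with this list: 9 of 10 were lower, with a median of -5.23, and each was well above background on at least 1 positive array. Their summed level was 2.64 to 2.72 in positive and 4.43 to 4.55 in negative cells. Most of the positive sum came from the brighter probe of Kdr, at 2.61 and 2.52, the only marker not called (0.07). The other Kdr probe gave -5.29 and was called lower. The part of endothelial markers in the result was not tested.

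**Figure D4:**
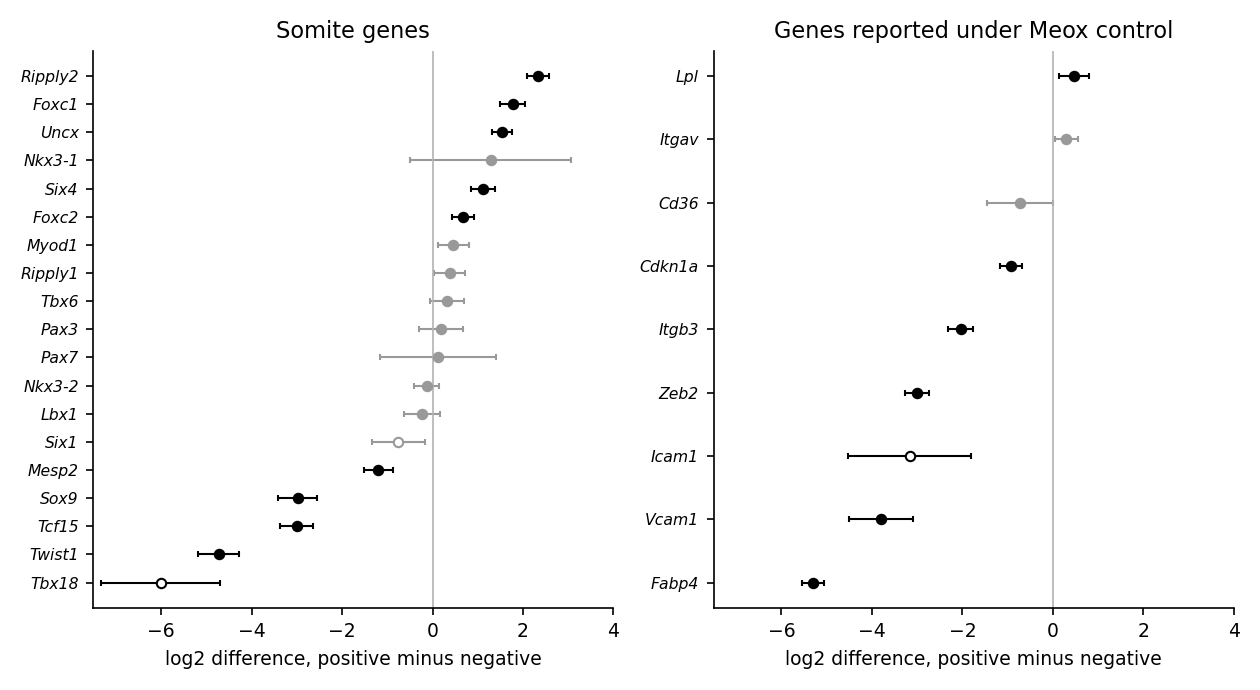
Log2 difference, Six2GFP-positive minus Six2GFP-negative, with 95% limma intervals (n = 2 arrays per group) for 19 somite genes and for 9 genes linked to Meox factors in vascular cells. The right panel is titled as genes under Meox control, which was not tested here. Black points passed an adjusted p of 0.05, grey points did not, and open points were not well above background in a group; Uncx (1.53) and Tcf15 (-3.01) lie on opposite sides of 0, and Fabp4 (-5.30) is the lowest in the right panel.

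Genes near Meox1 were compared to see how far its difference was shared along the chromosome. Within 500 kb of the Meox1 probe, 49 other probes were placed by the array design, 43 of them tested; 18 were higher (41.9%, against 21.1% of all probes) and 5 lower (11.6%, against 18.2%), with a median of 0.33. The largest upward difference among them was 1.97, against 4.24 for Meox1. The number higher was 28 with the array median, 10 with the replicate number as a block, 7 without the filter on dim probes and 3 without positive array 1, 5 without positive array 2, 7 without negative array 1 and 4 without negative array 2.

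The nearest genes past the threshold on either side were higher in positive cells. Etv4, an ETS factor that responds to FGF and RET signals, lies 108 kb to one side and was higher by 1.25 ± 0.08 by its brighter probe (adjusted p = 0.0017); its other probe also passed (adjusted p = 0.0036). Sost, which encodes the Wnt inhibitor sclerostin, lies 85.2 kb to the other side: it was at -3.51 and -3.81 in positive and -5.20 and -6.07 in negative cells (1.97 ± 0.34, adjusted p = 0.0187). The call of Sost ended without positive array 1 or 2 (0.0681 and 0.0519), and its difference was 1.01 with normexp. The phosphatase gene Dusp3 came next, at 0.49 ± 0.10 by its brighter probe (adjusted p = 0.0303), a call lost with each array left out, with the block, without the filter and with the mean of its probes.

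Farther out, Asb16 (1.38 ± 0.13) and the deacetylase gene Hdac5 (0.70 ± 0.10) were higher, the latter not past the threshold without positive array 1 or negative array 2 (adjusted p = 0.0595 and 0.0591). The red cell anion exchanger gene Slc4a1 was lower by far (-4.33 ± 0.16), as were the interferon-induced gene Ifi35 (-2.13 ± 0.13), Vat1 (-1.41 ± 0.12), the scaffold gene Mpp2 (-1.08 ± 0.12, or -0.38 with normexp) and Tmem106a. Rundc1, Rpl27, Rnd2, Brca1, Nbr1, Tmem101, Lsm12, G6pc3, Atxn7l3 and the transcript CA465648 were higher by 0.33 to 0.73, Rnd2 by 1 of its 2 probes. G6pc, Aarsd1, Ptges3l, Rdm1, Rnu2-10, Arl4d, Dhx8, Gm11552, Mpp3, Cd300lg, Pyy, Hrob, Tmub2, Ubtf and 2 unnamed transcripts did not pass, and Cfap97d1, Ppy and Nags were too dim to test.

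**Figure D5:**
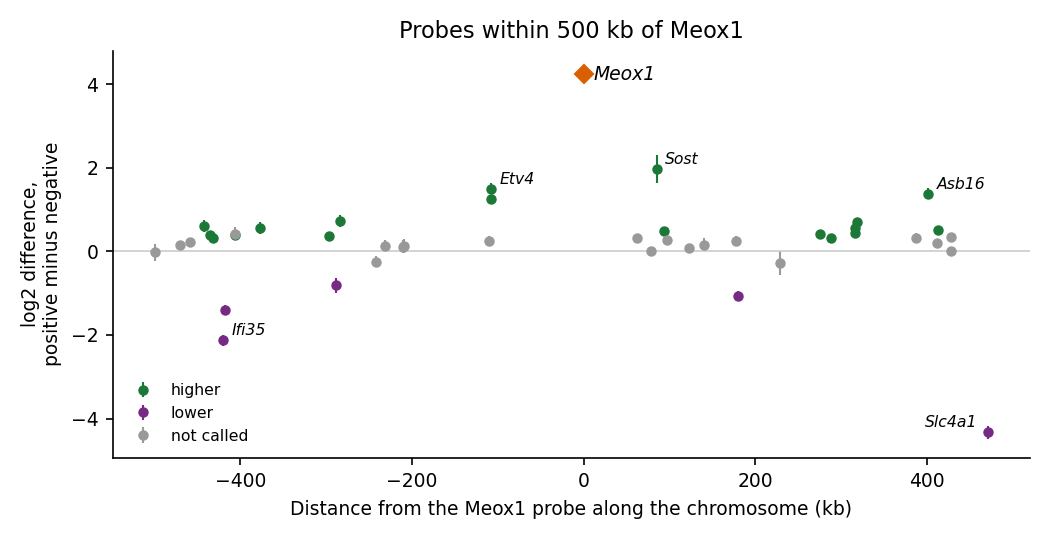
Log2 difference (points, with limma standard errors) of the 43 tested probes within 500 kb of the Meox1 probe, by distance in kb, coloured by call, with Meox1 itself as a diamond at 4.24. The nearest called genes, Etv4 and Sost, reach between 1.25 and 1.97, and Slc4a1 (-4.33) is the lowest.

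Near Meox2, the probe of Agmo, which encodes a lipid-cleaving enzyme and lies within the same 500 kb distance, was too dim to test.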

How the data were processed

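Cy3-labelled RNA of the sorted cells was read on Agilent design 026655, 1 array per sample. Feature Extraction 10.7.3.1 (protocol GE1_107_Sep09) made the authors' values, and probes are placed on mm9, per the file headers. Both the deposited scanner files and the deposited value table hold linear intensity; on each array 99.8% of table values lay within 0.01 log2 of the scanner values, with medians of 114 and 110 (positive arrays 1 and 2) and 157 and 143 (negative arrays 1 and 2), so scale, centring and direction are settled. Other steps are not given in the sources used here.

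Outlier spots were left out, spots of a probe averaged, and log2 processed signals centred on each array's 75th percentile. A probe was tested if both arrays of either group called it well above background, which kept 30012 of 39395. These were fitted with limma 3.58.1 in R 4.3.3 (lmFit, eBayes, two-sided, Benjamini-Hochberg over all probes); the fit was tested on simulated data. Where a group had no array with the probe well above background, the fold is a bound: on each such array the probe's value, or the dimmest well-measured signal where that is higher, stands in. That dimmest signal is not a set detection limit. Each bound holds for the processed signal only, and the fitted differences of these genes with normexp were smaller. RefSeq accessions named 26034 probes, and a gene in a list is its brightest tested probe.

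Named genes are both members, Six2 and Cited1, the 3 largest called differences each way per list, the partners Tcf15, Pax1, Pax3, Nkx3-2 and Uncx, genes within 500 kb (1 result is not reported here) and the 5 most alike; others were chosen after their values were seen. Members and lists were chosen with earlier results of these data known. Alternatives covered scaling, background correction, value table, dim-probe filter, variance model, probes per gene, replicate block and each array left out; a lone array was then assumed to vary like the other group, with the same probes tested.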

Additional observations from a re-analysis of the deposited data

How the results depend on the processing

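Meox1 and Meox2 stayed past the threshold in the same direction under all 15 alternatives, at log2 differences of 3.99 to 4.49 and 3.71 to 4.14. With the replicate number as a block (same-numbered arrays deviated together at r = 0.22 over 2 pairs; whether they share a sort or litter is not given in the labels) the differences were 4.24 and 3.89 (limma adjusted p = 0.0027 for both), and 10 neighbours were higher in place of 18. Without 1 array, Meox1 ranged from 4.12 to 4.35 and Meox2 from 3.83 to 3.95. The gap between the Meox1 and Meox2 differences was 0.42 with quantile normalization and 0.23 with normexp and the percentile. Probes higher numbered 13562 with the array median, 3391 without the filter and 1826 to 2682 without 1 array. Neighbours higher numbered 28 with the array median, 7 without the filter and 3 to 7 without 1 array. Somite genes higher were 8 with quantile normalization and with the array median. Of the genes linked to Meox factors, 2 were higher with quantile normalization, the array median, both normexp settings and the intensity trend. Without the filter and with the mean of probes, 0 were higher. With the mean of probes 1 of the homeobox relatives was lower. The sign of the median of those relatives turned to 0.032 (quantile), 0.016 (array median), 0.10 (normexp, percentile) and 0.0031 (normexp, quantile). Nkx3-2 turned to 0.17, 0.12, 0.11 and 0.12 in the same order. Pax3 ranged from -0.020 (without positive array 1) to 0.39 without 1 array. The causes of these changes were not tested. Normexp with the percentile also gave smaller differences for Tcf15 (-2.47), Slc4a1 (-3.74), Ifi35 (-1.42) and Asb16 (1.01). Pax3, Sost and the homeobox relatives were faint, though the Pax3 and Sost spots, like the Meox spots, were well above background on every array. The brighter Gbx1 probe and Evx2 were not well above background on either positive array, and Gsx2 was so on 1 negative array only. Whether faintness had a part in these changes was not tested.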

Other observations

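No probe of the MEF2 genes, chosen after the motif in the Meox2 promoter had been read, was called higher in Six2GFP-positive cells. Over all probes tested, 21.1% were higher and 18.2% lower, and the MEF2 probes are too few to set against these shares. Whether MEF2 factors act on Meox2 was not tested. Mef2c, best known from heart, muscle and endothelium, was at -5.47 and -5.86 on the positive arrays and at -2.68 and -3.21 on the negative arrays, lower by a log2 difference of -2.72 ± 0.25 (limma adjusted p = 0.0037). The brighter probe of Mef2a gave 0.09 ± 0.11 (adjusted p = 0.562) and the fainter one -0.49 ± 0.10 (adjusted p = 0.027). For Mef2d the values were -0.44 ± 0.12 (adjusted p = 0.0556) and -0.37 ± 0.10 (adjusted p = 0.0493), and for Mef2b 0.21 and 0.28, neither past the threshold. Endothelial markers were lower in the same cells (9 of 10), and their part in the Mef2c value was not tested.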
